A study of Mus musculus with 4 samples.

Results

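The genes described here are 10 genes of fibroblast growth factor (FGF) signalling with roles in the skeleton, chosen by name: the 4 receptors Fgfr1, Fgfr2, Fgfr3 and Fgfr4, the kinase-lacking receptor Fgfrl1, and the ligands Fgf2, Fgf7, Fgf9, Fgf10 and Fgf18. All 10 of these genes, of 22305 genes with a name, were on the array with 1 probe set each, and all were among the 14944 genes bright enough to be tested. Their RNA was measured on 4 Affymetrix Mouse Gene ST 1.0 arrays, 2 with rib chondrocytes of Eed cKO pups and 2 with those of wild-type (Wt) pups. Eed is a core subunit of Polycomb repressive complex 2 (PRC2), which writes the silencing histone mark H3K27me3, and the study asked which genes depend on it in committed chondrocytes. Eed cKO pups carried floxed Eed alleles and a Cre driven by the Col2a1 promoter, which is active in the chondrocyte lineage, so other rib cells in the culture may keep Eed. The labels call the controls wild type and do not say whether they carried Cre or a floxed allele. Both groups were newborn (P0.5), of a mixed C57B6/129Sv background, and both cultures spent a night in medium with fetal calf serum before RNA was taken. The samples are labelled biological duplicates, with no word on how many pups gave cells for an array, so the p-values measure the spread between these samples only.

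FGFs are secreted proteins that bind receptor tyrosine kinases together with heparan sulfate chains, and the receptors pass the signal on through Ras and the MAP kinases, through phosphoinositide 3-kinase and through STAT proteins. In the growth plate Fgfr3 is the receptor of proliferating chondrocytes and restrains their division, Fgfr1 is found in hypertrophic chondrocytes and in the perichondrium, and Fgfr2 in mesenchymal condensations, perichondrium and bone-forming cells. Fgf9 and Fgf18 are ligands that act on cartilage through Fgfr3, whereas Fgf7 and Fgf10 are products of mesenchyme that act mainly on the epithelial splice form of Fgfr2.

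Of the 10 genes, Fgf7 and Fgfr4 rose in Eed cKO chondrocytes and none fell. That is 2 of 10 called, where 15.6% of all genes tested were called, 9.63% as higher and 5.98% as lower. The signal of Fgf7 was 3.03 times that of Wt cells, whereas the rise of Fgfr4 was 1.16-fold and was lost under several other settings of the analysis. The other 8 genes did not pass the test, and their 95% confidence intervals lay between 0.845-fold and 1.28-fold of Wt. The median log2 difference over the 10 genes was 0.02, beside 0.00 over all genes tested. Both Eed cKO arrays lay on the same side of both Wt arrays for 3 of the 10 genes (Fgf7 and Fgfr4 above, Fgfrl1 below), where this held for 60.2% of all genes, 31.1% above and 29.1% below. Signals here are array intensities on a linear scale, differences are Eed cKO minus Wt on the log2(intensity + 32) scale with the standard error (SE) of a limma fit across all genes, and adjusted p-values are Benjamini-Hochberg values over the 14944 genes with 0.05 as the threshold. Each pair of values gives array 1 of the group before array 2.

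**Figure D1:**
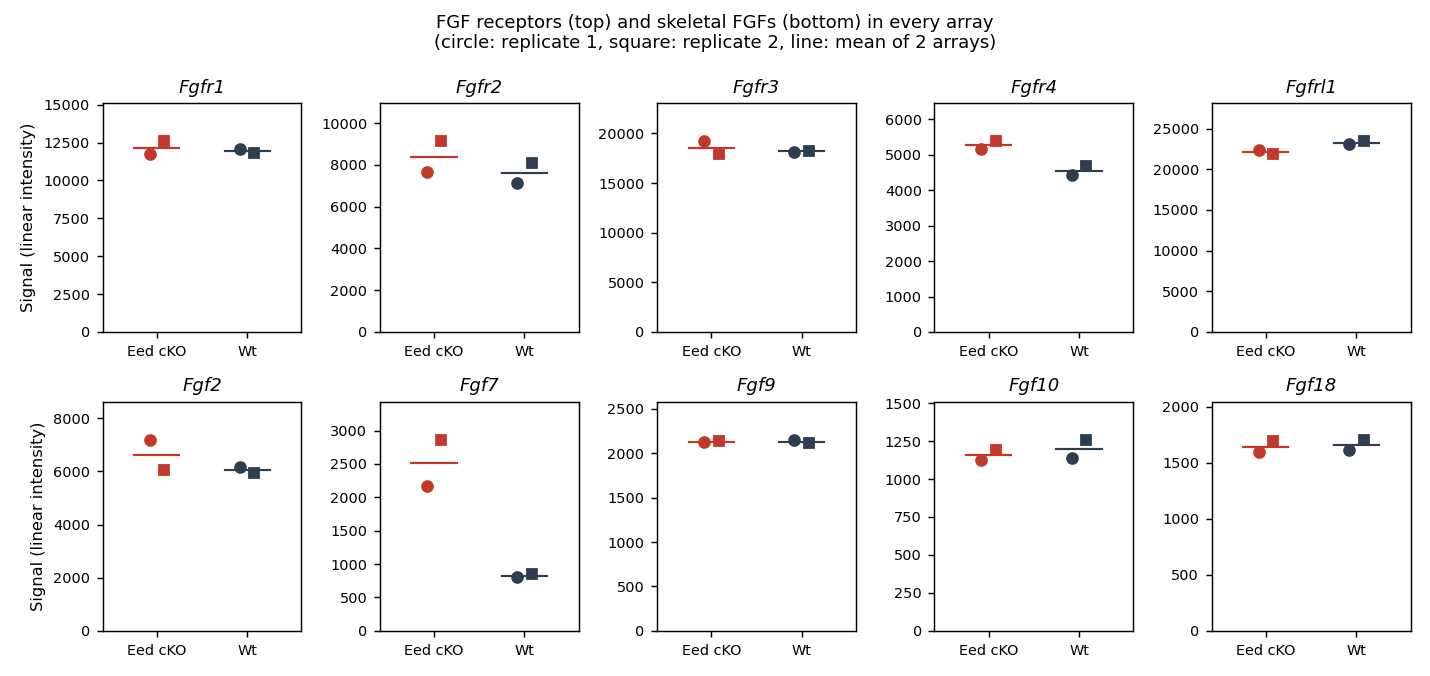
Signal (array intensity) of the 10 genes in each of the 4 arrays, Eed cKO arrays left of Wt arrays. Fgf7 lies at 2166 and 2854 in Eed cKO cells and at 801 and 854 in Wt cells, and the points of 7 of the 10 genes overlap between the groups.

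Eed, the deleted gene, had 1057 and 990.3 in Eed cKO cells, against 3597 and 3530.4 in Wt cells, and fell (log2 difference -1.77 ± 0.07 SE, adjusted p = 7.59e-05). Taken over all genes tested, log2 differences had an SD of 0.158 within the Eed cKO pair of arrays and 0.129 within the Wt pair, whereas pairs across the groups gave 0.267 to 0.280. The 13 chondrocyte markers were all present, with summed signals of 286459 and 281862 in Eed cKO and 288742 and 291935 in Wt cells. Xist, which is transcribed from inactive X chromosomes, had 4845 and 17196 in Eed cKO and 17820 and 3634 in Wt cells, so arrays high and low in Xist were found in both groups.

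Sequences just upstream of 3 ligands are shown because only the first of these genes was called, and because they differ in CG content; in mouse embryonic stem cells PRC2 is known to gather at promoters rich in CG. Each is the 250 bases before the start site, 5′ to 3′ on the gene's own strand, from RefSeq on GRCm38.p6, with every CG in capitals. Fgf7 lies at chr2:126034408-126034657 (plus strand), Fgf10 at chr13:118714449-118714698 (plus strand) and Fgf18 at chr11:33147401-33147650 (minus strand).
Fgf7: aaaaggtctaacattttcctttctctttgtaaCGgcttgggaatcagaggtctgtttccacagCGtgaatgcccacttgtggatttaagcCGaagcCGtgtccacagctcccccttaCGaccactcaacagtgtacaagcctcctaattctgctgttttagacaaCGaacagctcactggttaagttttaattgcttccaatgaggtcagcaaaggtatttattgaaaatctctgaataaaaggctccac
Fgf10: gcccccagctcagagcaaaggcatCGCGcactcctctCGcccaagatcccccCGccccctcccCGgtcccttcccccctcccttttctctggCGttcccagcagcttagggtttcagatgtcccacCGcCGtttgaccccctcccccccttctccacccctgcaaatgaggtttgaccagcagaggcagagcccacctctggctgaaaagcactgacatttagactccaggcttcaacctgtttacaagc
Fgf18: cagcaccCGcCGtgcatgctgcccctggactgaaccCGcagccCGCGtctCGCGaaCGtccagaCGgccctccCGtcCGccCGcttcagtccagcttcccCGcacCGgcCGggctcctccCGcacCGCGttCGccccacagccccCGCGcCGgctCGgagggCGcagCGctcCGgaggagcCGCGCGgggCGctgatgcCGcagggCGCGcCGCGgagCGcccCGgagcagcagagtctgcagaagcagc
The window of Fgf7, the gene that rose most, held 6 CG, which is the median of the 32851 promoters in the table. The window of Fgf10 held 8 CG and that of Fgf18 held 37, a number reached by 2.2% of all promoters. CG reads the same on both strands and its matches do not overlap. A promoter was found for 9 of the 10 genes, all but Fgfr1, and 8 of the 10 windows (Fgfr3 has a pair) held more CG than the median. The counts were 11 for Fgf9, 15 for Fgfr4, 19 and 24 for Fgfr3, 20 for Fgf2 and 30 for Fgfrl1, whereas Fgfr2 held 2. The deposited arrays carry no measure of H3K27me3, so the counts describe the sequence alone. The study mapped this mark in chondrocytes by ChIP-seq, and those data were not used here.

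Fgfr3 and Fgfr1, the receptors best known from cartilage, did not pass the test. Fgfr3, which in humans carries the activating mutations of achondroplasia, had signals of 19193 and 17916 in Eed cKO cells, against 18177 and 18246 in Wt cells. The arrays of the 2 groups overlapped, the log2 difference was 0.03 ± 0.04 SE and its 95% interval was -0.07 to 0.12 (adjusted p = 0.707). Fgfr1 had 11739 and 12567 in Eed cKO cells, against 12079.8 and 11839 in Wt cells, again with overlap. Its log2 difference was 0.02 ± 0.04 SE, with an interval of -0.08 to 0.13 (adjusted p = 0.777). These were the narrowest intervals of the 4 kinase receptors, and they leave room for changes of about 0.13 or less on the log2 scale. The signals of such bright genes may be compressed on an array, which would make a real difference look smaller.

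Fgfr2, the receptor with splice forms that sort the ligands of mesenchyme from those of epithelium, varied more between replicates. It had 7672 and 9117 in Eed cKO cells, against 7138 and 8079.5 in Wt cells, so that array 2 was above array 1 in both groups and the groups overlapped. The log2 difference was 0.14 ± 0.09 SE, with an interval of -0.08 to 0.36 (adjusted p = 0.363). A gene-level probe set does not tell the epithelial splice form of Fgfr2 from the mesenchymal one.

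Fgfr4, known mainly from liver and from developing muscle, was the receptor that passed the test. Its signals were 5177 and 5379 in Eed cKO cells, against 4438 and 4675 in Wt cells, with both Eed cKO arrays above both Wt arrays. The means were 5278 ± 143 in Eed cKO and 4556 ± 168 in Wt cells (SD, n = 2 each), and the log2 difference was 0.21 ± 0.06 SE with an interval of 0.08 to 0.34 (limma adjusted p = 0.0461). Among the 14 alternative settings, the series value table holds the same values, and averaging probe sets does not change a gene with 1 probe set. The adjusted p of Fgfr4 lay just under the threshold and passed it in 7 of the 14, with those settings among the 7. It was 0.282 without Wt 1, 0.106 without Wt 2 and 0.0941 without Eed cKO 2, while the difference stayed between 0.17 and 0.25 in all 14. Muscle markers are given beside it because muscle expresses Fgfr4. Of 8 listed, 6 were tested, 2 rose (Des, 0.73, and Myod1, 0.45) and 1 fell (Ttn, -0.88). The share higher was 33.3%, beside 9.63% of all genes higher and 5.98% lower. The summed signals of the 8 were 10373 and 11993 in Eed cKO cells, against 10794 and 10899.9 in Wt cells, with no marker at 0. The call of Myod1 was lost without Wt 1 (adjusted p = 0.0894). The part of other cells in the difference of Fgfr4 was not tested. In RNA from a mixed culture, a change in the number of cells of a type and a change in RNA per cell cannot be told apart, for this gene or for any other described here.

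Fgfrl1, which binds FGFs but has no kinase domain, gave a small difference in the other direction that did not pass the test. It had 22361 and 21834 in Eed cKO cells, against 23099.6 and 23419 in Wt cells, both Eed cKO arrays below both Wt arrays. The log2 difference of -0.07 ± 0.03 SE had an interval of -0.14 to -0.01, with an unadjusted p of 0.0371 that missed the threshold after adjustment (adjusted p = 0.136).

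**Figure D2:**
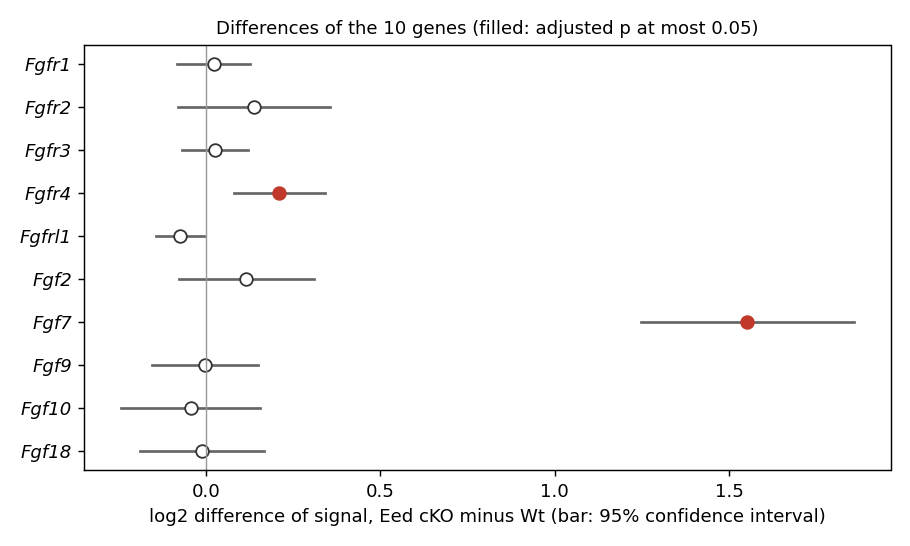
Log2 difference of signal (Eed cKO minus Wt) of the 10 genes with its 95% confidence interval, from a limma fit on 2 arrays per group; filled points have an adjusted p of at most 0.05. Fgf7 stands at 1.55 with an interval of 1.25 to 1.86, Fgfr4 at 0.21, and the intervals of 7 genes include 0.

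Among the ligands, Fgf7, also called keratinocyte growth factor, stood apart from the other 4. Its signals were 2166 and 2854 in Eed cKO cells, against 801 and 854 in Wt cells, so the lower Eed cKO array was still above both Wt arrays. The means were 2509.8 ± 487 in Eed cKO and 827 ± 37.4 in Wt cells (SD, n = 2 each), and the log2 difference was 1.55 ± 0.13 SE with an interval of 1.25 to 1.86 (limma adjusted p = 0.000715). Only 33 genes, or 0.221% of all tested, had a difference at least as high, Fgf7 included. The spread between the Eed cKO arrays was wider than between the Wt arrays, and the difference was 1.36 to 1.75 over the fits that leave out 1 array each, with an adjusted p of at most 0.000277. Between the arrays high in Xist the signal ratio was 3.56, and between those low in Xist it was 2.54. The Wt signal of Fgf7 was close to the median of all probe sets, and the files hold no detection call, so it is not known how much of that signal is background.

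The 3 genes whose profile over the 4 arrays was most like that of Fgf7 were Serinc2, Oas1g and Itga11. Their log2 differences were 1.53 for Serinc2, 1.62 for Oas1g and 1.45 for Itga11. The root mean square distance between their centred log2 profiles and that of Fgf7 was 0.0726, 0.0752 and 0.0784. Both Wt signals of Oas1g, 454 and 454, lay below the filter level of 626, so it was tested only through its Eed cKO signals. For Fgfr4 the most alike were Tead1, Phc2 and Zfpm1, at distances of 0.00293, 0.00590 and 0.00966, with log2 differences of 0.21 for Tead1, 0.21 for Phc2 and 0.20 for Zfpm1. These genes were picked by likeness over the same 4 arrays, so differences close to those of Fgf7 and Fgfr4 follow from the choice. Of the 4 nearest tested genes around Fgf7 on chromosome 2, none was called higher. On one side Galk2 and Cops2 had log2 differences of -0.19 and -0.01, and on the other Dtwd1 and Hdc had 0.13 and -0.31, of which Hdc, the enzyme that makes histamine, fell (adjusted p = 0.0443). Over the 10 genes, 1 of 40 such neighbours rose, Phf11d near Fgf9, and 3 fell, Hdc, Zfp932 near Fgfrl1 and Npm1 near Fgf18, where 9.63% of all genes were called higher and 5.98% lower.

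Fgf10, which shares its receptor form with Fgf7, did not pass the test. It had 1124 and 1194 in Eed cKO cells, against 1139 and 1255 in Wt cells, with overlap between the groups. The log2 difference was -0.04 ± 0.08 SE, with an interval of -0.24 to 0.16 (adjusted p = 0.768). The upper end of that interval lay far below the lower end of 1.25 for Fgf7, although the difference between the 2 genes was not itself tested.

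Fgf9 and Fgf18, the ligands made by perichondrium and mesenchyme that act on chondrocytes, did not pass the test. Fgf9 had 2125 and 2134 in Eed cKO cells, against 2145 and 2119 in Wt cells. Its log2 difference was 0.00 to 2 decimals, with an interval of -0.15 to 0.15 (adjusted p = 0.990). Fgf18, which restrains chondrocyte proliferation in mouse growth plates, had 1593 and 1694 in Eed cKO cells, against 1611 and 1700.0 in Wt cells. The groups overlapped for both ligands, and the log2 difference of Fgf18 was -0.01 ± 0.07 SE with an interval of -0.19 to 0.17 (adjusted p = 0.942).

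Fgf2, a ligand that lacks a classical signal peptide and is stored in cartilage matrix, depended on a single array. It had 7171 and 6041 in Eed cKO cells, against 6187 and 5959 in Wt cells, where Eed cKO 1 was above the other 3 arrays and Eed cKO 2 lay between the Wt arrays. The log2 difference was 0.12 ± 0.08 SE with an interval of -0.08 to 0.31 (adjusted p = 0.392). Without Eed cKO 2 it was 0.24 and passed the test (adjusted p = 0.0301), and without Eed cKO 1 it was -0.01.

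Of 17 other FGF ligands listed, 10 were bright enough to test. None rose, 1 fell and 9 did not pass the test, beside 15.6% called over all genes, and the median difference was -0.04. The gene that fell was Fgf21, a circulating ligand made mainly by liver, with 2039 and 2123 in Eed cKO cells, against 2950.3 and 2536 in Wt cells (log2 difference -0.39 ± 0.09 SE, adjusted p = 0.0261). Without Wt 1 its adjusted p was 0.177.

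**Figure D3:**
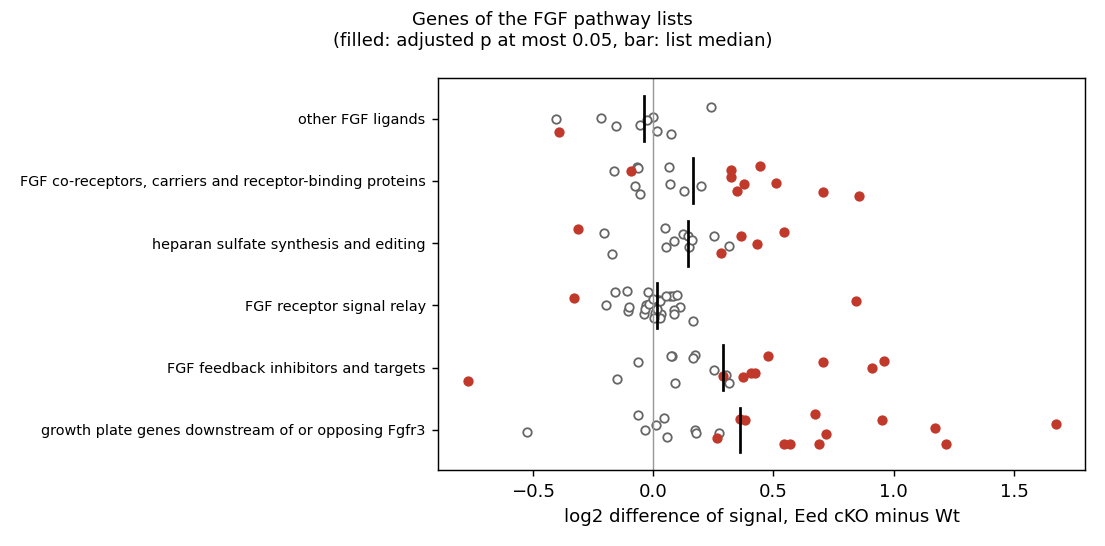
Log2 difference of signal (Eed cKO minus Wt, horizontal axis) of each tested gene in 6 lists of the FGF pathway; filled points have an adjusted p of at most 0.05, bars are list medians, and the height of a point within its row carries no value. The median is 0.02 for the signal relay, 0.29 for feedback inhibitors and targets and 0.36 for growth plate genes around Fgfr3.

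The next list holds proteins that keep FGFs at the cell surface, carry them or bind their receptors. Of 18 tested, 8 rose (44.4%, beside 9.63% of all genes), 1 fell and 9 missed the threshold, and the median difference was 0.16. Flrt2, a membrane protein of the family that binds FGF receptors, had 5209 and 6304 in Eed cKO cells, against 3123 and 3187 in Wt cells (log2 difference 0.85 ± 0.09 SE, adjusted p = 0.00174). Tgfbr3, or betaglycan, a proteoglycan that binds FGF2 as well as TGF-β, had 7654 and 6583 in Eed cKO cells, against 4496 and 4192 in Wt cells (log2 difference 0.71 ± 0.08 SE, adjusted p = 0.00223). Flrt3 and the heparan sulfate carrier Sdc1 also rose, by log2 differences of 0.51 and 0.32, with no overlap of the groups. Bgn, a matrix proteoglycan, was called lower (log2 difference -0.09), a call lost without any 1 of the 4 arrays (adjusted p = 0.0566 to 0.228). Kl, the co-receptor of Fgf23, had 641 and 713 in Eed cKO cells, against 611 and 681 in Wt cells, and did not pass the test (log2 difference 0.06, adjusted p = 0.696). The co-receptor Klb was below the filter.

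Enzymes that build and edit heparan sulfate gave 4 genes higher, 1 lower and 11 not called, of 16 tested, and their median was 0.15. Hs6st2, which adds sulfate to the chains, had 5886 and 4819.6 in Eed cKO cells, against 3669.8 and 3618 in Wt cells (log2 difference 0.54 ± 0.09 SE, adjusted p = 0.0103). The heparanase Hpse (0.43), the sulfotransferase Hs3st1 (0.37) and the chain polymerase subunit Ext1 (0.28) rose as well, and the epimerase Glce (-0.31) fell. Both Wt signals of Hs3st1, 564 and 548, lay below the filter level of 626, so this gene was tested only through its Eed cKO signals. The calls of Hpse, Hs3st1, Ext1 and Glce were each lost without at least 1 of the Wt arrays. Without Wt 1 the adjusted p was 0.145 for Hpse, 0.0872 for Hs3st1 and 0.107 for Ext1. Without Wt 2 it was 0.136 for Hs3st1, 0.0834 for Ext1 and 0.103 for Glce, and without Eed cKO 2 it was 0.0699 for Ext1.

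The relay that runs between the receptors and the MAP kinases gave 1 gene higher, 1 lower and 27 not called, of 29 tested. Its share higher was 3.45%, beside 9.63% of all genes higher and 5.98% lower, and its median was 0.02. Frs2, the docking protein of FGF receptors, had 5534 and 5795 in Eed cKO cells, against 5044 and 5449.5 in Wt cells (log2 difference 0.11 ± 0.06 SE, adjusted p = 0.260). Pik3r1, the regulatory subunit of phosphoinositide 3-kinase, rose, with 8109 and 8959 in Eed cKO cells, against 4914 and 4565 in Wt cells (log2 difference 0.84 ± 0.07 SE, adjusted p = 0.000563). Map2k1, a kinase that activates the MAP kinases, fell, with 3944 and 3989 in Eed cKO cells, against 4924 and 5058 in Wt cells (log2 difference -0.33 ± 0.05 SE, adjusted p = 0.00809). Without Wt 2 the adjusted p of Map2k1 was 0.0534.

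Feedback inhibitors and transcription targets of the pathway were another group with more genes higher than lower. Of 19 tested, 8 rose (42.1%, beside 9.63% of all genes), 1 fell (beside 5.98%) and 10 missed the threshold. The median difference was 0.29. Dusp6, a phosphatase of MAP kinases that FGF signalling induces, had 2976 and 2783 in Eed cKO cells, against 1479.6 and 1447 in Wt cells (log2 difference 0.96 ± 0.07 SE, adjusted p = 0.000425). Spry4, a feedback inhibitor of receptor tyrosine kinases, had 1954 and 1631 in Eed cKO cells, against 1108 and 1057 in Wt cells (log2 difference 0.71 ± 0.10 SE, adjusted p = 0.00507), and the transcription factor Etv1 had 2412 and 2314 in Eed cKO cells, against 1418 and 1089.8 in Wt cells (log2 difference 0.91 ± 0.12 SE, adjusted p = 0.00405). In all 3 the Eed cKO arrays were above both Wt arrays. Dusp4, also among the 8, had Wt signals of 606 and 574, below the filter level of 626, and was tested only through its Eed cKO signals. Egr1 (0.43) and Etv5 (0.38) also rose, although the call of Etv5 was lost without Wt 2 (adjusted p = 0.128) and without Eed cKO 1 (adjusted p = 0.0507).

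Other genes of the Spry and Etv families follow, and differences between genes of a family were not tested. Spry3 fell, with 2258 and 2229 in Eed cKO cells, against 3513 and 4207 in Wt cells (log2 difference -0.77 ± 0.09 SE, adjusted p = 0.00259). Spry1 had 1507 and 1869 in Eed cKO cells, against 1364 and 1342 in Wt cells, and did not pass (0.30, adjusted p = 0.107), but passed without Eed cKO 1 (adjusted p = 0.00923). Spry2 (0.08, adjusted p = 0.648) and Etv4 (0.25, adjusted p = 0.0730) did not pass. Many of these genes answer to other growth factors too, and the arrays do not measure their part in FGF signalling in these cells. By immunoblot, the study found raised phosphorylation of ERK pathway proteins in Eed cKO rib chondrocytes. It also reports that blocking ERK signalling in mice left the skeletal defects unchanged.

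In the growth plate, Fgfr3 acts against the Indian hedgehog and PTHrP loop and is opposed by C-type natriuretic peptide and its receptor Npr2. Of 21 genes listed around this axis, 12 rose (57.1%, beside 9.63% of all genes), none fell (beside 5.98%) and 9 missed the threshold. The median difference was 0.36. Bmp4, a growth factor of the BMP family, had 3896 and 4487 in Eed cKO cells, against 1417 and 1172 in Wt cells (log2 difference 1.67 ± 0.11 SE, adjusted p = 0.000283). Ihh, the hedgehog ligand of prehypertrophic cells, had 3332 and 4089 in Eed cKO cells, against 2247 and 2208 in Wt cells (log2 difference 0.72 ± 0.10 SE, adjusted p = 0.00445), and Pth1r, the receptor of PTHrP, had 9867 and 10291 in Eed cKO cells, against 6657 and 7134 in Wt cells (log2 difference 0.55 ± 0.05 SE, adjusted p = 0.00111). The transcription factors Twist1 (1.21) and Twist2 (1.17) rose, and both also stand in the perichondrium list. Npr2 rose by a log2 difference of 0.27 (adjusted p = 0.00425), whereas Pthlh, which encodes PTHrP, had 0.27 and did not pass (adjusted p = 0.0612), except without Eed cKO 1 (adjusted p = 0.0339).

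Markers of other cells and stages moved in the same arrays. Of 8 hypertrophic markers 6 rose and 1, Col10a1, fell, and the list had a median of 0.66 and summed signals of 76671 and 93292 in Eed cKO, against 55033 and 68648 in Wt cells. Of 14 perichondrium and fibroblast markers 7 rose and 1 fell, with a median of 0.27 and sums of 116107 and 124883 in Eed cKO, against 103474 and 111343 in Wt cells. Fgf7 is a product of mesenchymal cells, and this list stands beside it for that reason. Epithelial cells are the usual targets of Fgf7. Of 6 epithelial markers tested, Krt18 rose (0.49) and 5 were not called, and their median was 0.27, while all 8 listed had sums of 8684 and 9194 in Eed cKO, against 6889.7 and 7455 in Wt cells. The call of Krt18 was lost without Wt 2 (adjusted p = 0.0529), and that of Col10a1 without Wt 2 (0.0628) and without Eed cKO 1 (0.109). No marker of any list was at 0. The chondrocyte list, with 1 higher and 2 lower of 13, had a median of -0.04. The part of these cells in the rise of Fgf7 and in the pathway lists was not tested.

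**Figure D4:**
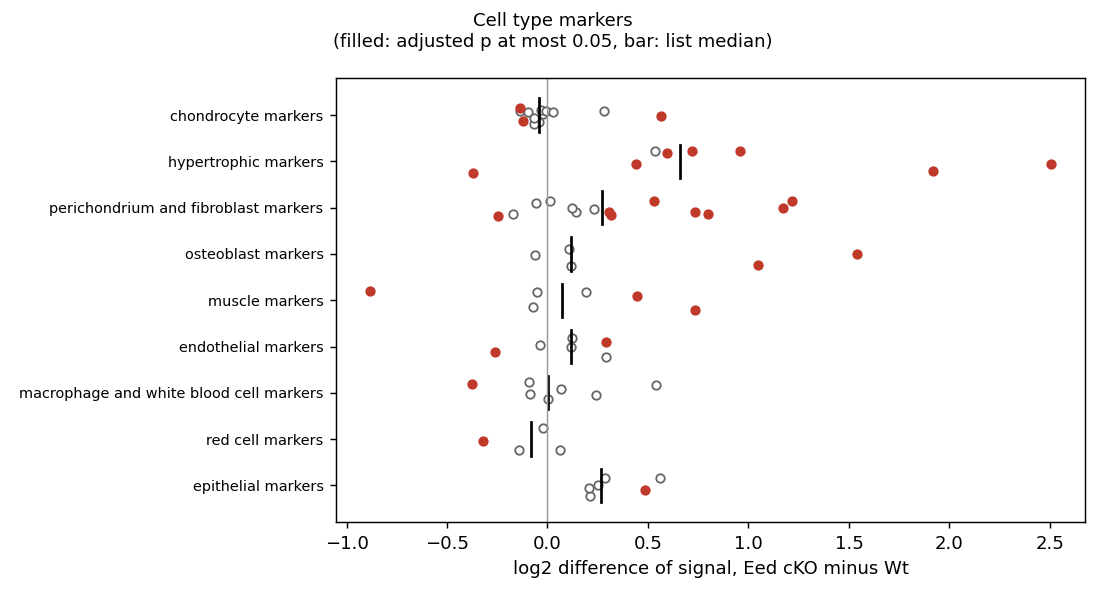
Log2 difference of signal (Eed cKO minus Wt, horizontal axis) of each tested marker in 9 cell type lists; filled points have an adjusted p of at most 0.05, bars are list medians, and the height of a point within its row carries no value. The chondrocyte list centres on -0.04, the hypertrophic list on 0.66 and the perichondrium and fibroblast list on 0.27.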

How the data were processed

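Per the file headers, the deposited values are 1 intensity per probe set and array on a linear scale, made by the authors from 4 arrays. A supplementary sheet of the study is named for dChip signals, with its background correction and normalization not given in the sources used here; array medians lay between 830.4 and 837. The table also holds ratio columns of the authors' own comparison, which were not used. Names were updated through RefSeq (GRCm38.p6). The brightest probe set by mean stood for each of 22305 genes. A filter at the 33rd percentile of the mean, near a signal of 626, left 14944 for testing. That mean is over all 4 arrays, so a gene dim in 1 group could pass through the other. Values were tested as log2(intensity + 32), which understates the differences of dim genes, with limma 3.58.1 (R 4.3.3; functions lmFit and eBayes, the second with trend; two-sided; group as the single term; 2 residual degrees of freedom, 6.91 with the shared variance), and the script was checked on simulated arrays. Intervals are 95% intervals of that fit and are not adjusted for the number of genes. Arrays have no depth, and precision is limited by their number.

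Members and lists were chosen with earlier results of these data known. Named are the 10 genes, Eed, of each list the genes past the threshold (the 4 with the smallest p in each direction where more than 5 changed), the usual partners of the 10 genes, and for the receptor and the ligand with the largest difference the 3 genes with the most alike profile. Marker genes, Xist and genes on either side of a member (2 tested genes each) were named after their values were seen. Protein sequences were not used here. Alternatives were a smaller and a larger pseudocount, other filters, all probe sets averaged, quantile normalization, no trend, the replicate number as a block, the series value table, the methods' t-test, and each array left out in turn.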

Additional observations from a re-analysis of the deposited data

How the results depend on the processing

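Over all genes 1439 rose and 894 fell. Without the intensity trend 574 fell, and with each array left out in turn 928 to 1562 rose (fewest without Wt 1) and 385 to 1170 fell (fewest without Wt 2). The methods' t-test, with 2 arrays a group, called 2 genes higher and 2 lower after Benjamini-Hochberg (2949 at an unadjusted p under 0.05, against 4554 with limma), 0 of the 10 genes, 0 higher and 0 lower in the pathway lists, and for Eed gave the same difference of -1.77 (adjusted p = 0.145).

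Of the 10 genes, Fgf7 rose in 13 of 14 alternatives, all but the t-test (adjusted p = 0.192), with differences of 1.36 to 1.75. The series value table and the averaging of probe sets, counted in the 14, could not change the differences of the 10 genes. Fgfr4 was called in 7 of 14, and only 1 of the 10 genes was called higher without a filter on dim genes (Fgfr4 adjusted p = 0.0588), with quantile normalization (0.0652) and without the trend (0.0800). With each array left out 1 to 2 of the 10 genes were higher and 0 lower, and in the pathway lists 26 to 39 were higher (33 with all arrays) and 2 to 6 lower (5 with all arrays). Among genes that were not called, the sign turned without 1 array in Fgfr1 (-0.0266 to 0.0714), Fgfr3 (-0.0235 to 0.0756), Fgf2 (-0.00745 to 0.239), Fgf9 (-0.0104 to 0.00717), Fgf10 (-0.112 to 0.0239), Fgf18 (-0.0535 to 0.0331), Kl (-0.00921 to 0.139) and Spry2 (-0.0634 to 0.223). The cause was not tested.

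With the replicate number as a block, the same 2 of the 10 genes rose, Fgf7 by 1.55 and Fgfr4 by 0.21, while 1539 genes rose and 972 fell in all. The study states that cKO and control mice were compared as littermates, but the labels do not say that arrays with the same number share a litter, and the deviations of same-numbered arrays had a correlation of -0.0642.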

Other observations

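FGF ligands below the filter have values and no test. Fgf13, which acts inside the cell and binds no FGF receptor, had signals of 507 and 504 in Eed cKO cells, against 323 and 385 in Wt cells. Fgf15, a hormone of the gut, had 563 and 617 in Eed cKO and 490.3 and 502 in Wt cells. The groups did not overlap for these 2, where this held for 60.2% of all genes tested, a set that leaves out such dim genes. The groups overlapped for Fgf6, Fgf12, Fgf14, Fgf16 and the bone hormone Fgf23, which had 502 and 536 in Eed cKO and 481 and 535 in Wt cells.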
